A study of Homo sapiens with 2 samples.

Results

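The peaks described here are those listed for a pulldown of HA-tagged ETV6 on the short arm of chromosome 12, outside the ETV6 gene itself. Whether they mark sites bound by ETV6 was not tested. They were chosen by position alone, as the peaks of the hg19 list whose summit lies below 34800000 on chromosome 12, leaving out the interval of ETV6 from 11802788 to 12048325. The rule gave 3603 of the 315787 peaks in the list, or 1.14%. Of these, 1971 lie telomeric of ETV6 and 1632 centromeric of it. The long arm of chromosome 12, taken as the peaks above 37870000, held 11413 peaks and serves as the contrast.

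The list comes from chromatin immunoprecipitation sequencing in Reh, a long-established cell line of pre-B leukaemia with the translocation t(12;21). One group of Reh cells was transduced with the lentiviral vector pCCL ETV6-HA, which encodes ETV6 with an HA tag. The other group was transduced with pCCL ETV6, which encodes untagged ETV6, and served as the negative control. Both received 200 ng of virus with 8 µg/mL polybrene, were kept for 2 weeks, and were pulled down with anti-HA magnetic beads. Both therefore received ETV6 from a vector, and whether the line makes any ETV6 itself was not examined here. Each group is 1 pooled library, so no spread between replicates could be measured and no test between conditions was possible. The peak list used here belongs to the ETV6-HA pool, and for the untagged pool 0 lists were analysed. The 95% intervals below are exact binomial (Clopper-Pearson) intervals for shares, conditional exact binomial intervals for density ratios and order-statistic intervals for medians. They cover counting error over peaks only and take each peak as independent. Peak counts varied widely between windows, so the intervals are likely too narrow for contrasts between regions.

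ETV6 is a transcription factor of the ETS family that acts mainly as a repressor, binds DNA through its ETS domain and forms oligomers through its pointed domain. It is needed for blood cell formation from bone marrow stem cells. The gene sits on the short arm of chromosome 12, and fusion to RUNX1 together with loss of the remaining ETV6 allele is a known course of events in childhood pre-B leukaemia. Losses of this arm often take in neighbours of the gene. In the RefSeq gene order of GRCh38.p14, used here for names only, the closest protein-coding genes telomeric of ETV6 are PRB2, PRB4 and PRB3, which encode salivary proline-rich proteins, followed by the bitter taste receptor gene TAS2R42. The closest centromeric ones are BCL2L14, a member of the BCL2 family, and LRP6, a co-receptor for Wnt ligands. MANSC1, BORCS5 and the phosphatase gene DUSP16 come next, and CREBL2, GPR19 and CDKN1B, which encodes the cell cycle inhibitor p27, lie beyond them. Peaks were not assigned to these genes, because the annotation at hand is of another build than the peaks, and no sequence is shown for the same reason.

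The short arm was slightly poorer in peaks than the long arm, and the sides of ETV6 differed far more than the arms did. Over the span between first and last peak, the short arm had 104.5 peaks per Mb over 34.5 Mb, against 118.9 per Mb on the long arm. The ratio of short to long arm was 0.878 (95% interval 0.846 to 0.912). The autosomes other than 3, 12 and 21, used as a wider comparison set, had 111.8 per Mb. Of the 22 autosomes, chromosome 12 among them, 13 had a higher density than the short arm of chromosome 12. These autosomal densities were taken over whole chromosomes from first to last peak, with long peak-free stretches included. The stretch between the arms of chromosome 12 is left out of both arms, so the autosomal values are somewhat lowered beside them. Telomeric of ETV6 the density was 167.9 per Mb, against 71.7 per Mb centromeric of it, a ratio of 2.34 (2.19 to 2.501). So the telomeric side lay above the long arm and the centromeric side below it, and the value for the whole arm averages unlike sides. Parts of the long arm differed more widely than these sides. It had 45.8 per Mb in the 5 Mb next to its inner bound and 208.5 per Mb from 10 to 20 Mb off that bound.

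In windows of 250 kb laid outward from the edges of the ETV6 interval, the sides differed in the same sense over their whole length, though not next to the gene. The 47 telomeric windows held 6 to 89 peaks with a median of 43, and the 91 centromeric windows held 1 to 58 with a median of 16. The 383 long-arm windows held 2 to 86 with a median of 27, close to the median of 25 on the autosomes other than 3, 12 and 21. At least 50 peaks were held by 18 of the telomeric windows (38.3%, 24.5 to 53.6), by 1 of the centromeric windows (1.10%, 0.0278 to 5.97) and by 66 of the long-arm windows (17.2%, 13.6 to 21.4). Among all autosomal windows the share with at least 50 peaks was 15.0%. No window of the short arm was without a peak, 0 of 138 (exact interval up to 2.64%), and on the long arm the count was 0 of 383 (up to 0.959%). Over all autosomal windows 1.42% were without a peak. At most 2 peaks were held by 1 short-arm window and by 3 long-arm windows, against 2.40% of all autosomal windows. A peak of at least 20 reads was missing from 94 short-arm windows (68.1%) and from 264 long-arm windows (68.9%), as from 68.0% of all autosomal windows.

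**Figure D1:**
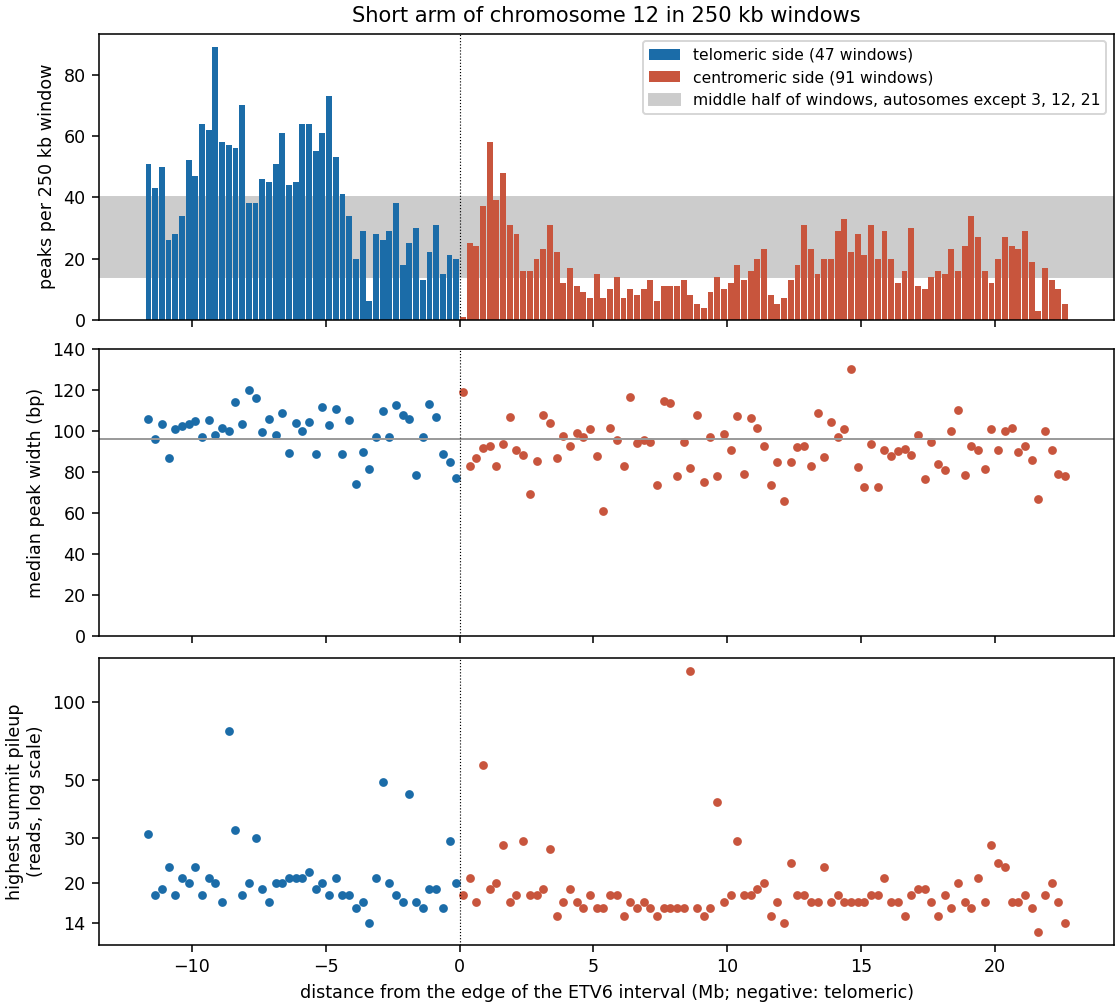
Peaks per 250 kb window (top), median peak width in bp (middle) and highest summit pileup in reads on a log axis (bottom), by distance in Mb from the edge of the ETV6 interval, for 47 telomeric and 91 centromeric windows of the short arm. The grey band spans the 25th to 75th percentile of windows on the autosomes other than 3, 12 and 21, and the grey line is the median of their median widths. Counts are high from about 4 Mb telomeric outward and low between 4 and 10 Mb centromeric, while median widths stay between 61 and 130.5 bp throughout.

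The dense part of the arm began about 4 Mb telomeric of ETV6 and reached the end of the arm. In steps of 2 Mb outward from the gene, the telomeric side had 88.5 and 97 peaks per Mb, then 222.5, 184 and 251.5, and 163.6 in the outermost 1.74 Mb. The richest window of the arm was chr12:2552789-2802788 with 89 peaks, of which only 1 reached 20 reads. It was followed by chr12:6802789-7052788 with 73 peaks and chr12:3552789-3802788 with 70. Another 3 windows, chr12:2052789-2302788, chr12:5802789-6052788 and chr12:6052789-6302788, had 64 each. All of these lie telomeric of ETV6. The poorest telomeric window, chr12:8302789-8552788, had 6 peaks, none above 14 reads, between neighbours with 29 and 28.

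On the centromeric side the density peaked near the gene and then dropped. Per 5 Mb outward it was 95 peaks per Mb, then 39.2, 74.8 and 79.4, and 69.1 in the last 2.75 Mb. The densest centromeric window was the fifth from ETV6, chr12:13048326-13298325, with 58 peaks. From 5 to 10 Mb the 196 peaks were spread over windows of at most 15 peaks each. These sparse windows still held the tallest peak of the arm, described below.

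Next to ETV6 both flanks were ordinary in height but unequal in filling. Outward from the gene, the first 4 telomeric windows had 20, 21, 15 and 31 peaks, and the first 4 centromeric windows had 1, 25, 24 and 37. The first telomeric megabase and the first centromeric megabase had 87 peaks each. Over 2 Mb the telomeric flank had 88.5 per Mb, against 131.5 per Mb in the centromeric flank, and over 5 Mb the order turned, with 114.4 per Mb in the telomeric flank against 95 per Mb in the centromeric flank. Which flank looks richer thus depends on how far out it is counted. Of the peaks within 2 Mb, 4 of 177 reached 20 reads on the telomeric side (2.26%, 0.619 to 5.68) and 7 of 263 on the centromeric side (2.66%, 1.08 to 5.41). Both shares are close to the 2.62% of all autosomal peaks that reach this height. Median widths were 92 bp in the telomeric flank and 91 bp in the centromeric flank.

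The first centromeric window was nearly empty. After the last peak inside the ETV6 interval no peak was listed from 12043993 to 12288129, a stretch of 244.1 kb, of which 239.8 kb lie outside the interval. The stretch ended at chr12:12288130-12288248, with a summit pileup of 18 reads and a fold enrichment of 3.59. Fold enrichments are the authors' values from the peak caller, taken over the background at the summit. At 95.8% of listed peaks, this one included, that is the same background of 4.29 reads. Fold follows directly from the reads at such peaks. The next 2 peaks, chr12:12307883-12307935 and chr12:12311770-12311821, had 12 and 13 reads. On the telomeric side the last peaks before the interval were chr12:11687685-11688073 with 20 reads, chr12:11688153-11688212 with 12 and chr12:11729144-11729203 with 12, the last of them 73.6 kb from the edge. With the interval's own 10 peaks set aside, the short arm had no peak over 558.9 kb. Of those 10, 7 had 176 to 8853 reads and the other 3 had 13 to 30. Reads from the ETV6 vector and binding at the gene were not told apart at these peaks, which is why the interval is kept out of the counts here.

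**Figure D2:**
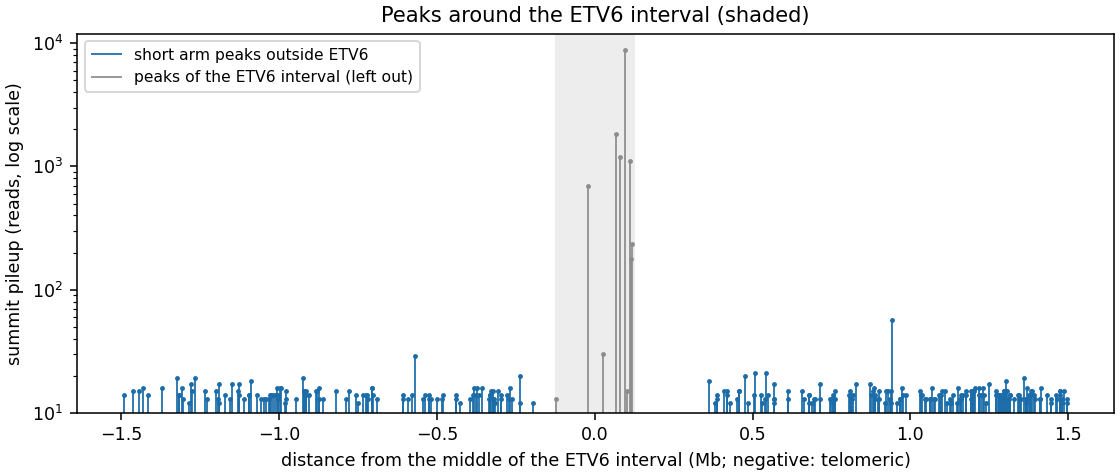
Summit pileup in reads (log axis) of every listed peak within 1.5 Mb of the middle of the ETV6 interval, by distance in Mb, with members in blue and the 10 peaks of the left-out interval in grey. The interval is shaded; no peak stands in the 239.8 kb to its right, and the tallest member shown has 57 reads.

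The stretch beside ETV6 was the longest of the short arm, but stretches of its length occur elsewhere. On the long arm 3 stretches were at least as long, the longest being 279.3 kb. Over all autosomes 132 stretches between neighbouring peaks were at least 239.8 kb and at most 2.5 Mb long, the one beside ETV6 included. At the full 244.1 kb, counted from the last peak inside the interval, the number was 129. Of those, 97 lay on autosomes other than 3, so chromosome 3 alone held a large part. The stretch beside ETV6 ended in a well-filled region, with 140 peaks in the 1 Mb beyond it. In 35 of the 132 autosomal stretches (26.5%) the denser of the adjacent megabases held at least as many, and the median over the 132 was 86.5. This comparison was chosen after the stretch had been seen.

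Stretches of at least 100 kb without a peak lay almost all on the centromeric side. The short arm had 14, of which 1 lay telomeric of ETV6 and 13 centromeric of it. That is 4.06 per 10 Mb for the short arm, against 3.02 per 10 Mb on the long arm with its 29 stretches and 3.11 on the autosomes other than 3, 12 and 21. By side the values were 0.852 per 10 Mb telomeric and 5.71 centromeric. The telomeric stretch ran from 9561711 to 9739410, over 177.7 kb, between peaks of 13 and 14 reads, 2063.4 kb from the edge of the interval. After the one beside ETV6, the longest centromeric stretches were 21110467 to 21300308, over 189.8 kb, and 34560229 to 34742292, over 182.1 kb and near the inner end of the arm. Apart from the stretch beside the gene, the nearest centromeric one began 5649.4 kb from the interval. The region between was without any.

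Heights on the short arm were much like those of the long arm. Height is the summit pileup, the number of reads over the summit, recovered from the deposited fold enrichment and p-value. The median was 14 reads on both arms, just above the lowest listed pileup of 12. At least 16 reads were reached by 663 short-arm peaks (18.4%, 17.1 to 19.7), against 2287 long-arm peaks (20.04%, 19.3 to 20.8) and 21.2% of all autosomal peaks. At least 18 reads were reached by 175 short-arm peaks (4.86%, 4.18 to 5.61), against 630 long-arm peaks (5.52%, 5.11 to 5.95) and 6.67% of all autosomal peaks. At least 20 reads were reached by 68 short-arm peaks (1.89%, 1.47 to 2.39), against 179 long-arm peaks (1.57%, 1.35 to 1.81). Both shares were below the 2.62% of all autosomal peaks. At least 25 reads were reached by 20 short-arm peaks (0.555%, 0.339 to 0.856), against 51 long-arm peaks (0.447%, 0.333 to 0.587) and 0.861% of all autosomal peaks. The intervals of the arms overlapped at each of these limits. On the autosomes other than 3, 12 and 21 the shares were 20.3%, 6.08%, 2.30% and 0.782% at 16, 18, 20 and 25 reads. Those at 20 and 25 reads lie within the short-arm intervals, and those at 16 and 18 reads lie above them. Counted per Mb, the ratio of short to long arm was 0.807 (0.739 to 0.880) for peaks of at least 16 reads and 1.06 (0.787 to 1.40) for peaks of at least 20 reads.

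At 16 reads the share of taller peaks differed between the sides of ETV6. At least 16 reads were reached by 20.3% of telomeric peaks (18.5 to 22.1) and by 16.1% of centromeric peaks (14.4 to 17.99). These intervals did not overlap, but they are likely too narrow for such a contrast. At 18 reads the shares were 5.63% (4.66 to 6.74) on the telomeric side and 3.92% (3.03 to 4.98) on the centromeric side. The intervals at 18 reads overlapped. At 20 reads the shares were 2.13% (1.54 to 2.87) on the telomeric side and 1.59% (1.04 to 2.33) on the centromeric side, with overlapping intervals. In the 35 short-arm windows with 34 or more peaks, 20.1% of peaks had 16 reads or more (18.3 to 22.04), and in the 38 windows with 13 or fewer the share was 16.2% (12.5 to 20.5). On the long arm the share was 22.3% (21.2 to 23.4) in the 97 windows with 41 or more peaks and 14.8% (12.6 to 17.2) in the 99 windows with 14 or fewer. The share was higher in the dense windows on both arms. The intervals of dense and sparse windows overlapped on the short arm and not on the long arm. The sparse windows held 346 peaks on the short arm and 926 on the long arm, so the short-arm interval is wider. This overlap therefore does not show that the arms differ. At 20 reads the short-arm shares were 2.00% (1.40 to 2.76) in the dense windows and 1.73% (0.639 to 3.74) in the sparse ones. A threshold of q at most 0.01 was met by 18.2% of short-arm peaks (16.9 to 19.5), against 19.7% of long-arm peaks (19.0 to 20.5) and 20.7% of all autosomal peaks. It nearly repeats the limit of 16 reads, because q follows from the pileup at peaks with the same background. On the short arm 655 peaks met it, and 663 reached 16 reads. A threshold of q at most 0.05 was met by 89.0% of short-arm peaks (88.0 to 90.0), against 89.3% of long-arm peaks (88.7 to 89.9) and 89.4% of all autosomal peaks.

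**Figure D3:**
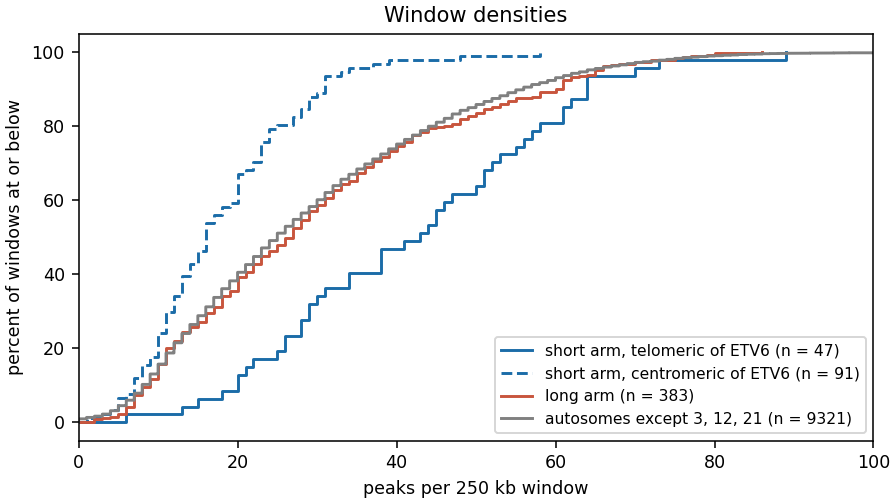
Share of 250 kb windows in percent at or below a given number of peaks, for the telomeric (solid blue) and centromeric (dashed blue) sides of the short arm, the long arm (red) and the autosomes other than 3, 12 and 21 (grey). The long arm and the other autosomes run close together with medians of 27 and 25, the telomeric side lies to their right with a median of 43 and the centromeric side to their left with 16.

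Most peaks of the short arm were narrow, and their width followed their height. The median width was 96 bp (94 to 98), from 54 bp at the 5th percentile to 200 bp at the 95th, against 98 bp (97 to 99) on the long arm. Telomeric peaks had a median of 101 bp (99 to 104) and centromeric peaks one of 92 bp (89 to 94). At the same pileup and at the shared background, the lowest background in the list at 4.29 reads, the arms gave nearly the same widths. With 13 reads the medians were 75 bp (73 to 78) on the short arm and 77 bp (76 to 79) on the long arm. With 15 reads they were 112 bp (109 to 116) on the short arm and 113 bp (112 to 115) on the long arm, and with 17 reads 151 bp (146 to 158) on the short arm and 145 bp (142 to 149) on the long arm. Intervals of the arms overlapped at every pileup from 12 to 21 reads. Summed over all peaks, 1.12% of the short arm was covered.

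**Figure D4:**
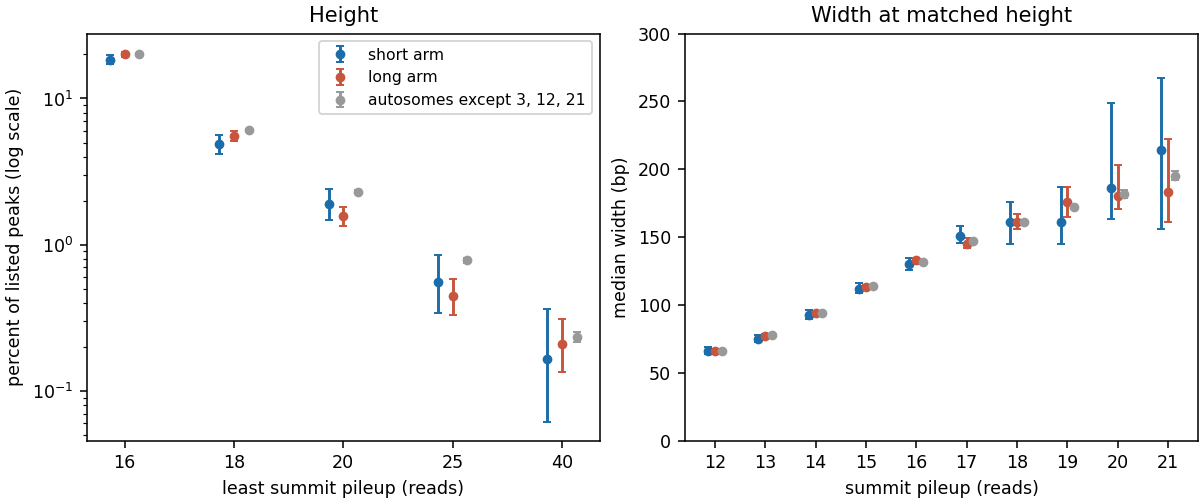
Left, percent of listed peaks (log axis) that reach at least 16, 18, 20, 25 and 40 reads. Right, median width in bp at each summit pileup from 12 to 21 reads, for peaks at the shared background. Blue is the short arm, red the long arm and grey the autosomes other than 3, 12 and 21, with 95% intervals; the arms overlap at every point.

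Short-arm peaks stood a median of 2.36 kb from the nearest other summit (2.27 to 2.52), against 2.22 kb (2.13 to 2.28) on the long arm. A neighbour within 1 kb was found for 24.9% of short-arm peaks (23.5 to 26.4) and for 26.7% of long-arm peaks (25.9 to 27.5), against 29.2% of all autosomal peaks. On the telomeric side the share was 32.0% (29.9 to 34.1) and on the centromeric side 16.4% (14.7 to 18.3).

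Of the 20 members with at least 25 reads, 11 lay telomeric and 9 centromeric of ETV6. A group of 5 stood together in the outermost 200 kb, described below, and the others were scattered. The highest fold enrichment was at chr12:3159440-3159763, with 77 reads over the shared background, a fold of 14.8 and a width of 324 bp. The next at that background was chr12:12868564-12868861, with 57 reads, a fold of 11.0 and a width of 298 bp, 820.4 kb centromeric of the ETV6 interval. It was the tallest member within 5 Mb of the gene. The peak at chr12:8993475-8993759 had 49 reads and a fold of 9.46, and chr12:9803392-9803612 had 44 reads and a fold of 8.51. On the centromeric side chr12:21707027-21707333 had 41 reads and a fold of 7.94. These 5 peaks had widths of 221 to 324 bp.

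Weaker peaks of the same kind included chr12:3455711-3456120 with 32 reads and a fold of 6.24, and chr12:4057837-4058076 with 30 reads and a fold of 5.86. The 3 peaks chr12:11355129-11355359, chr12:14323505-14323747 and chr12:22328159-22328364 had 29 reads and a fold of 5.67 each. The first of them lies 447.5 kb telomeric of the ETV6 interval. The tallest long-arm peak had 95 reads. The shared background was found at 14 of the 20 short-arm peaks of at least 25 reads (70%), at all 51 of the long arm, and at 56.4% of the 2117 on the autosomes other than 3, 12 and 21.

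The tallest member by reads and by q was unlike the others. At chr12:20704377-20704491 the summit had 131 reads over a background of 8.56 reads, with a fold enrichment of 13.8 and a −log10 q of 99.2. It was 115 bp wide, the narrowest of the 20, whose median width was 264 bp. Its background was the highest of any member. Of the 121 peaks in the list with at least 100 reads, 5 were as narrow as this one or narrower, and the other 4 lay outside chromosome 12. Its window held 8 peaks. Without it the highest pileup among the members was 77 reads.

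The other 5 tall members with a raised background lay together at the end of the arm. Between 66851 and 195979 the outermost 200 kb held 28 peaks, 146.5 bp wide and 17 reads tall in the median, and 10 of them reached 20 reads. The background was raised over the shared level at 9 of the 28, up to 7.99 reads. The widest member, chr12:83138-84414, was 1277 bp wide with 20 reads. Close together, with other listed peaks between the first and the second, stood chr12:162703-163333, 631 bp wide with 26 reads, chr12:165281-165809, 529 bp wide with 21 reads, and chr12:165884-166424, 541 bp wide with 31 reads. The remaining wide member, chr12:31368609-31369122, stood far from this block, 514 bp wide with 20 reads. Over the whole short arm 111 peaks (3.08%, 2.54 to 3.70) were above the shared background, against 329 (2.88%, 2.58 to 3.21) on the long arm and 4.16% of all autosomal peaks. Without the outermost 200 kb the share on the short arm was 2.85%, and the share with at least 20 reads was 1.62%. The part of the raised background in the heights there was not tested.

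Set by distance from the chromosome ends, the arms differed most from 10 to 20 Mb inward. On the long arm, which spans 96.0 Mb, this step lies nearer the end than the middle. In the outermost 5 Mb the short arm had 201.4 peaks per Mb and the long arm 156 per Mb. From 5 to 10 Mb inward the densities were 163 per Mb on the short arm and 160.4 per Mb on the long arm. From 10 to 20 Mb, with the ETV6 interval taken out, the short arm had 76.5 per Mb, against 175.2 per Mb on the long arm. Counted from the inner bounds, the first 5 Mb held 74.6 per Mb on the short arm and 45.8 per Mb on the long arm. The next 5 Mb held 87 per Mb on the short arm and 90.6 per Mb on the long arm. From 10 to 20 Mb off the inner bounds the arms lay furthest apart. The short arm had 50.1 per Mb there, against 208.5 per Mb on the long arm. In the outermost 1 Mb 12 of 171 short-arm peaks reached 20 reads (7.02%, 3.68 to 11.9), against 1 of 155 long-arm peaks (0.645%, 0.0163 to 3.54). Of those 12, 10 belong to the outermost 200 kb described above. At the inner bounds the order was the other way, with 1 of 45 short-arm peaks in the first 1 Mb at 20 reads or more (2.22%, 0.0562 to 11.8), against 6 of 35 long-arm peaks (17.1%, 6.56 to 33.6). These intervals overlapped, and all 6 long-arm peaks lay in 1 window. That window, chr12:38120001-38370000, held 10 peaks, 222.5 bp wide and 20 reads tall in the median, and 8 of them had a raised background.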

How the data were processed

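Anti-HA pulldown DNA of the 2 pools was sequenced, and 1 peak list, that of the ETV6-HA pool, was analysed. The submitters' processing notes name build hg19, MACS2 (version 2.1.1.20160309) and Bowtie2 (version 2.2.3), without settings. The deposited list has 1 summit per peak and a fold column, taken here as the linear ratio of the summit to its background. The −log10 p and −log10 q of each summit are deposited beside it, and the largest q is 0.0981. The deposited score repeats −log10 q, multiplied by 10 and cut to a whole number, and was left aside. The authors pooled replicates before calling, and the untagged pool is assumed to be the caller's control.

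Pileup and background were solved from fold = (pileup + 1)/(background + 1) and the Poisson upper tail, and pileups came out whole within 0.05 reads for 99.9997% of peaks. The shared background is the floor of 4.29 reads, taken by 95.8% of peaks within 0.005 reads. On 5000 peaks simulated with the same formula 100% of pileups were recovered. That checks the solver only, not whether the deposited columns follow the formula. Library read totals were not used here, so depth is given as summit pileup. Peaks in windows of 250 kb and in the arms were counted by summit. Peak-free stretches of at least 100 kb were measured from the end of one peak to the start of the next. Autosomal windows wholly inside stretches over 2.5 Mb were left out. Peaks were named by rule: the 10 strongest by q and by fold, the 5 widest, the 3 nearest ETV6 on each side and those that bound long stretches; not every one is named in the text. The limits of 25 reads and of 200 kb were added after values were seen, and members and lists were chosen with earlier results of these data known. Planned gene-based descriptions could not be made without an hg19 annotation. The work was done in Python 3.11.15 with scipy 1.17.1, pandas 2.3.3, numpy 2.4.6 and, for figures, matplotlib 3.10.9.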

Additional observations from a re-analysis of the deposited data

How the results depend on the processing

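Of 57 alternatives over 15 values, 39 stayed within the interval or within 1.5 times the count and 18 moved. The density ratio of short to long arm stayed below 1 under each of its alternatives. The order of 2 other pairs changed. The telomeric flank was below the centromeric flank at 2 Mb and above it at 5 Mb, with 114.4 per Mb against 95 per Mb. The share of tall peaks was higher on the short arm at 20 and 25 reads and lower at 16 and 18 reads. Stricter lists hold fewer and wider peaks by construction. At q of at most 0.01 the densities were 19.0 per Mb on the short arm and 23.5 per Mb on the long arm, with a ratio of 0.810, and the median width was 146 bp on both. At q of at most 0.05 the median widths were 101 bp on the short arm and 103 bp on the long arm. The share of tall peaks moved with its limit, on the short arm to 18.4%, 4.86% and 0.555% at 16, 18 and 25 reads, and on the long arm to 20.04%, 5.52% and 0.447%. In 100 kb windows 2.32% of the short arm and 1.46% of the long arm were empty, against 0 of either at 250 kb. The 14 stretches became 1 at a minimum of 200 kb and 93 at q of at most 0.01. The stretch beside ETV6 became 558.9 kb with the left-out interval ignored, an alternative added after the data were seen. The centromeric flank went to 87 per Mb over 1 Mb, and the megabase after it held 176 peaks. No paired analysis was possible because each group is 1 pooled library, and no replicate could be left out. No peak below 12 reads is listed, and a summit over a raised background needs more, so an empty stretch shows only that no site passed the caller's threshold.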
